A study of Mus musculus with 23 samples.

Results

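Glucocorticoid hormone follows the active phase of the day, and the genes below are among those it is known to switch on in muscle. Their RNA was examined in the tibialis anterior, a muscle of the front of the lower leg, of female C57BL/6 mice fed ad libitum. The 10 genes Fkbp5, Tsc22d3, Klf9, Klf15, Zbtb16, Pik3r1, Arrdc2, Ddit4, Mt1 and Mt2 were taken by their GENCODE symbol from a table of 14500 genes. All 10 were present, and all 10 were among the 12820 genes kept for testing, which had an FPKM (fragment count scaled by transcript length and library size) of at least 1 in at least 2 of the 23 libraries. The lowest value of any of them in any library was 1.37 FPKM.

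The libraries came from RE-RE mice and wild-type (WT) mice, from muscle treated with 6-OHDA and from sham muscle, at ZT12 and at ZT0 (zeitgeber time, in hours after lights on). RE-RE mice were Bmal1(stopFL/stopFL) and carried the transgenes Syt10-Cre(-/tg) and Hsa-Cre(-/tg). The stop cassette silences Bmal1 (Arntl), the core clock activator, until Cre removes it. Syt10-Cre acts in the brain, the suprachiasmatic nucleus included, and Hsa-Cre acts in skeletal muscle fibres, so the other cells of the muscle keep the silenced gene. The neurotoxin 6-OHDA, which destroys sympathetic nerve endings, was injected into the muscle at 50 mg/kg over 2 weeks, and tissue was taken 2 weeks later. Sham muscle was not injected, so the toxin, its vehicle and the injections cannot be told apart. The groups held 2 libraries of RE-RE 6-OHDA muscle at ZT12 (ages 15 to 18 weeks), 2 of RE-RE 6-OHDA at ZT0 (12 to 16 weeks), 2 of RE-RE sham at ZT12 (11 weeks) and 2 of RE-RE sham at ZT0 (10 to 11 weeks). Wild-type muscle gave 4 libraries of 6-OHDA at ZT12 (12 to 15 weeks), 4 of 6-OHDA at ZT0 (15 to 16 weeks), 3 of sham at ZT12 (12 to 18 weeks) and 4 of sham at ZT0 (13 to 18 weeks). Nothing in the labels says which libraries share a mouse, so p-values measure only the spread between these samples, which may be technical.

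Corticosterone, the glucocorticoid of mice, binds the receptor Nr3c1, which enters the nucleus and activates genes at glucocorticoid response elements. In mice its blood level peaks around the change from light to dark, at the start of the active phase. In muscle the induced genes dampen the receptor's own signal, damp inflammation, slow protein synthesis and insulin signalling, and favour the use of amino acids as fuel.

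The sequences around the start sites of these genes were searched for letters that known regulators bind, on both strands, from 250 bases before to 50 bases after each start, in RefSeq promoters of build GRCm38.p6. A window was found for 9 of the 10 genes, 12 windows in all. The full glucocorticoid element, AGAACA and TGTTCT with any 3 bases between them, was in none of the 12 windows and in 0.00913% of all 32851 windows. The hexamer AGAACA alone was in 1 of 3 Tsc22d3 windows and in 18.97% of all windows. The E-box CACGTG, which Arntl and its partner bind, occurred 3 times in the Klf15 window and once in that of Fkbp5, and 7.15% of all windows held at least 1 and 0.0883% at least 3. The metal response core, TGCACNC or TGCGCNC, bound by the zinc sensor Mtf1, occurred 3 times in the Mt1 window and 4 times in that of Mt2, and 25.7% of all windows held at least 1, 1.97% at least 3 and 0.517% at least 4. It occurred once each in the windows of Klf15 (where it overlaps a CACGTG), Ddit4 and Pik3r1, and none of these letters was found in the Klf9 and Arrdc2 windows. A match describes these letters in these windows only.

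The windows of both metallothioneins are shown for their repeated metal response cores, in capitals on either strand, at chr8:94178839-94179138 (Mt1) and chr8:94172368-94172667 (Mt2), both on the plus strand. The Mt2 gene (chr8:94172664-94173568 in GENCODE, GRCm38) lies just before Mt1 (chr8:94179082-94180327). That of Klf15, chr6:90462326-90462625 on the plus strand, is shown for its E-boxes, in capitals. That of Tsc22d3, chrX:140600473-140600772 on the minus strand, is shown for the hexamer, in capitals as its complement TGTTCT. That of Arrdc2, chr8:70839671-70839970 on the minus strand, is shown because this gene differed most between the times.
Mt1: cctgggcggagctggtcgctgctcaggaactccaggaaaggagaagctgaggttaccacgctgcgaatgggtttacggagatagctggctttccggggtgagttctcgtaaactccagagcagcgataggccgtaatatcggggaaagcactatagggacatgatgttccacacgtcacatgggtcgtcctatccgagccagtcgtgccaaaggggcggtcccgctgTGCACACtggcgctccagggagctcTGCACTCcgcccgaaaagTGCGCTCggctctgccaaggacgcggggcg
Mt2: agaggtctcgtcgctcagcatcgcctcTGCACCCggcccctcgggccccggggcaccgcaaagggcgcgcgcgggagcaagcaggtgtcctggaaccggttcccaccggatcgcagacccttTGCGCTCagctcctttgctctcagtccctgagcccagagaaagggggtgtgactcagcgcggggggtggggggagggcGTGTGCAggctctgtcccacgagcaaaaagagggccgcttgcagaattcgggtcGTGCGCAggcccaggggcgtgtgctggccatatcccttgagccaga
Klf15: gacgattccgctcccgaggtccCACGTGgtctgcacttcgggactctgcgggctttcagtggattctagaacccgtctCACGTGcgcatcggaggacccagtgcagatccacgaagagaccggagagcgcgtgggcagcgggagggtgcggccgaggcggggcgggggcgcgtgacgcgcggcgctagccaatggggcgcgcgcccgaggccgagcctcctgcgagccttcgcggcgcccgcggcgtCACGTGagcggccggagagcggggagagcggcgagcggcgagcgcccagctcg
Tsc22d3: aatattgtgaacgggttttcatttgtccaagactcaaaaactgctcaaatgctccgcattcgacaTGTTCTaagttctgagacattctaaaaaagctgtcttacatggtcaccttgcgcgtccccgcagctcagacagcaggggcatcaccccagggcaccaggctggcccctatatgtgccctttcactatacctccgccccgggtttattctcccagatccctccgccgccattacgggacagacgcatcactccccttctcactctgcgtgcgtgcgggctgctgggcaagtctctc
Arrdc2: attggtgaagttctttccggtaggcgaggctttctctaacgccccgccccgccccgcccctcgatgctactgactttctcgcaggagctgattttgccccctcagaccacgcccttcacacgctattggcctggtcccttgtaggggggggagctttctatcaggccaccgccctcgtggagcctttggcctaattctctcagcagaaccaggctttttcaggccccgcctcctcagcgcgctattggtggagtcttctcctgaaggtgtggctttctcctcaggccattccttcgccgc

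Steps in the low FPKM values gave the depth of the libraries as 21.1 to 36.1 M reads, and the fewest reads behind any value of the 10 genes were 21, for Mt2 in RE-RE 6-OHDA ZT0 library 2. Arntl followed the labels of time, with 1.23 to 4.07 FPKM in the ZT12 libraries and 8.87 to 15.7 FPKM in the ZT0 libraries. Muscle fibre genes led every library, with 33095 to 62957 FPKM summed over 9 markers. Summed over 10 macrophage markers, WT 6-OHDA libraries held 151 to 535 FPKM and WT sham libraries 25.9 to 69.9 FPKM. Of the 4 RE-RE 6-OHDA libraries, ZT0 library 2 went against its label, with 19.2 FPKM of these markers and 136 FPKM of 8 fibroblast and matrix markers, where the other 3 held 87.8 to 329 and 466 to 1314 FPKM. RE-RE sham libraries held 31.1 to 98.5 and 181 to 819 FPKM, so RE-RE 6-OHDA ZT12 library 3 (87.8 and 466 FPKM) lay within the sham range of both. RE-RE sham libraries 1 (ZT0) and 3 (ZT12) stood apart too, with 27.6% and 23.1% of reads on the mitochondrial genome, against 7.31% to 21.2% in the other 21 libraries. They held 39.7 and 37.4 FPKM of the receptor gene Nr3c1, against 11.0 to 23.03 FPKM in the others. By median Pearson r with all other libraries, RE-RE 6-OHDA ZT12 library 4 (0.868) and WT 6-OHDA ZT0 library 1 (0.865) lay below these 3 (0.873 to 0.898). Differences named from RE-RE muscle are therefore given with these 3 libraries and without them. Leaving them out keeps 1 library in each RE-RE group but 6-OHDA at ZT12, so values without them have no spread within those groups. In whole muscle, fewer cells of a type and less RNA per cell cannot be told apart.

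**Figure D1:**
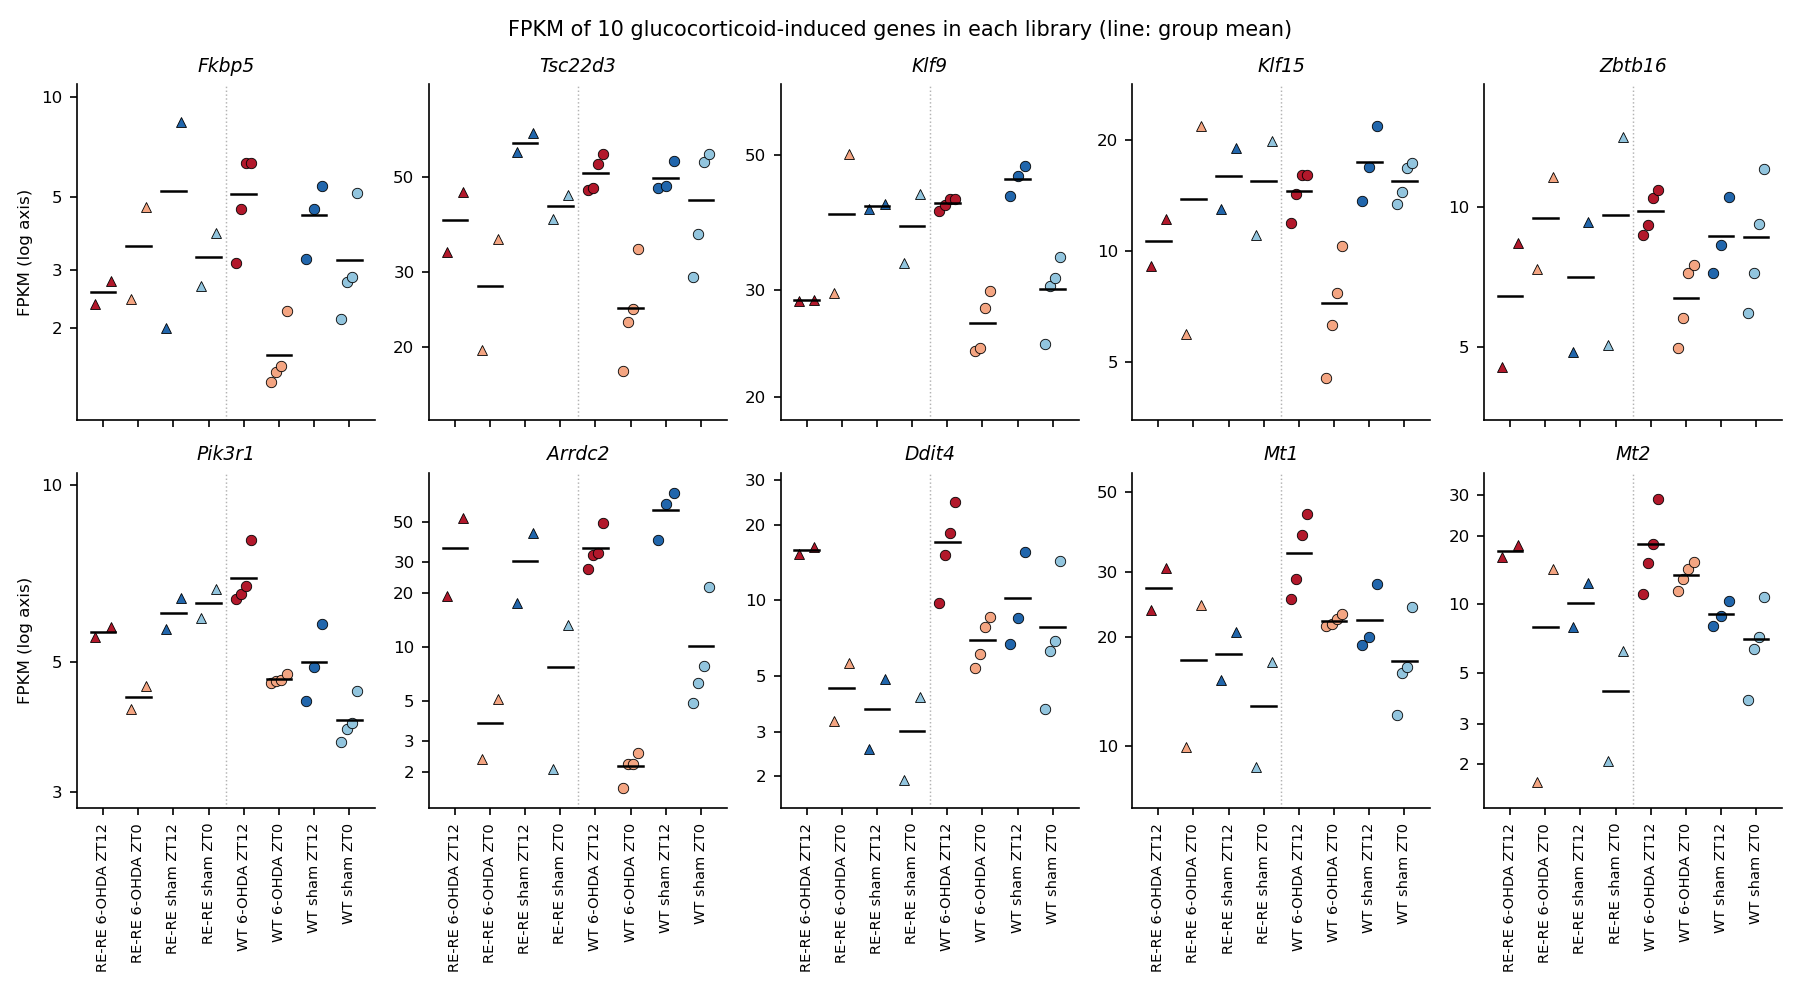
FPKM of each gene in each library, on log axes, by group (triangles RE-RE, circles WT, red and orange 6-OHDA, dark and light blue sham, darker shades ZT12), with the group mean as a line. Arrdc2 spans 1.64 to 72.3 FPKM and parts the times in WT muscle, while WT 6-OHDA muscle at ZT0 has the lowest mean log2 FPKM of 5 genes.

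The genes differed widely in level and in range. Tsc22d3 and Klf9 were the most abundant, with means over all libraries of 42.1 and 35.9 FPKM, and Fkbp5 the least, with 3.58 FPKM. Between the highest and the lowest group mean, FPKM differed 26.9-fold for Arrdc2, 5.61-fold for Ddit4, 4.41-fold for Mt2 and 3.14-fold for Fkbp5, and 1.55-fold to 2.63-fold for the other 6 genes. Ranked by the mean log2 FPKM, WT 6-OHDA muscle at ZT12 was the highest of the 8 groups for 6 genes and WT 6-OHDA muscle at ZT0 the lowest for 5. Of 70 neighbouring pairs of groups in this order, 64 had libraries that overlapped. Sorting by the means puts close groups side by side, and the count was not made over all genes, so it describes the order only.

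The comparison of times asks how much these genes differ between the start of the active phase and the start of the rest phase. In WT sham muscle, ZT12 minus ZT0, limma called 2 of the 10 genes higher at an adjusted p under 0.05 and none lower, where 0.959% of all genes tested were called higher. These were Arrdc2 and Klf9. In WT 6-OHDA muscle it called 6 higher and none lower, where 1.54% of all genes were called higher: Fkbp5, Tsc22d3, Klf9, Klf15, Pik3r1 and Arrdc2. The median log2 difference of the 10 genes was 0.43 in sham and 0.87 in 6-OHDA muscle, against -0.01 and 0.01 over all genes tested, and all 10 differences lay above 0 in each, as did 48.2% of all genes in sham and 51.1% in 6-OHDA muscle. The libraries of the 2 times did not overlap for 2 genes in sham muscle (5.74% of all genes in that direction) and for 9 in 6-OHDA muscle (4.02%).

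Arrdc2, an alpha-arrestin of the adaptors that steer membrane proteins, moved most. WT 6-OHDA muscle held 49.2, 33.5, 27.4 and 32.7 FPKM at ZT12, against 2.24, 2.23, 1.64 and 2.56 FPKM at ZT0. WT sham muscle held 39.9, 62.9 and 72.3 FPKM at ZT12, against 4.91, 7.81, 6.32 and 21.6 FPKM at ZT0. The times did not overlap in either treatment, and sham ZT0 library 4 stood above the other 3. The difference was 4.02 ± 0.36 on the log2 scale in 6-OHDA muscle (16.2-fold, adjusted p = 4.0e-05) and 2.73 ± 0.39 in sham muscle (6.65-fold, adjusted p = 0.00165; errors are SE).

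Among the transcription factors, Klf9, a zinc finger repressor, rose at ZT12 in both treatments. It held 40.5, 41.4, 42.3 and 42.4 FPKM at ZT12 in WT 6-OHDA muscle, against 24.1, 28.1, 23.8 and 29.9 FPKM at ZT0. In WT sham muscle it held 42.8, 48.0 and 46.1 FPKM at ZT12, against 30.5, 24.5, 31.4 and 34.0 FPKM at ZT0. No library of one time reached the other. The log2 difference was 0.66 ± 0.10 in 6-OHDA muscle (adjusted p = 0.00321) and 0.61 ± 0.11 in sham muscle (adjusted p = 0.00905), and without sham ZT12 library 6 the adjusted p of the second was 0.0588, and with the RE-RE libraries in the fit 0.0935. Klf15, which drives the breakdown of branched-chain amino acids in muscle, held 16.1, 11.9, 14.3 and 16.1 FPKM at ZT12 in WT 6-OHDA muscle, against 4.51, 7.70, 6.30 and 10.3 FPKM at ZT0. That difference, with no overlap, was 1.07 ± 0.21 (adjusted p = 0.016), and 0.0616 to 0.0685 when ZT0 library 3 or ZT12 library 5 or 8 was left out, and 0.203 with the RE-RE libraries in the fit. In WT sham muscle Klf15 overlapped between times, with 13.7, 21.8 and 16.9 FPKM at ZT12 and 17.3, 13.5, 14.4 and 16.8 FPKM at ZT0, a difference of 0.15 ± 0.23 (adjusted p = 0.881). Zbtb16, a BTB zinc finger repressor, did not pass, at 0.64 ± 0.20 in 6-OHDA muscle (adjusted p = 0.126) and 0.05 ± 0.22 in sham muscle (adjusted p = 0.973). Its libraries held 10.9, 10.5, 8.74 and 9.18 FPKM at ZT12 in WT 6-OHDA muscle, against 7.51, 5.76, 4.97 and 7.20 FPKM at ZT0, which do not overlap. Its WT sham libraries held 7.23, 10.5 and 8.29 FPKM at ZT12, within the 5.93 to 12.1 FPKM at ZT0.

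Of the genes that feed back on the hormone or carry its effect on inflammation, Fkbp5 and Tsc22d3 passed in 6-OHDA muscle. Fkbp5, a co-chaperone that lowers the receptor's affinity for hormone, held 6.33, 6.34, 3.15 and 4.59 FPKM at ZT12 in WT 6-OHDA muscle, against 1.47, 1.37, 1.54 and 2.25 FPKM at ZT0. It was 1.59 ± 0.28 higher (3.0-fold, adjusted p = 0.00797), with no overlap, a call lost with the RE-RE libraries in the fit (adjusted p = 0.0573). In WT sham muscle it held 3.25, 5.39 and 4.60 FPKM at ZT12 and 2.76, 2.86, 2.13 and 5.13 FPKM at ZT0, which overlap, and the difference was 0.50 ± 0.30 (adjusted p = 0.578). Tsc22d3, or GILZ, which restrains inflammatory transcription factors, held 56.4, 53.6, 47.1 and 46.5 FPKM at ZT12 in WT 6-OHDA muscle, against 17.5, 24.6, 22.9 and 33.9 FPKM at ZT0. Here too no library overlapped, and the difference was 1.08 ± 0.21 (adjusted p = 0.0149), with 0.0501 to 0.0610 when ZT0 library 1 or 3 or ZT12 library 5 was left out. Sham libraries of Tsc22d3 overlapped in WT muscle, with 47.5, 54.4 and 47.1 FPKM at ZT12 and 36.8, 29.1, 56.6 and 54.2 FPKM at ZT0, a difference of 0.22 ± 0.23 (adjusted p = 0.804).

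Pik3r1 and Ddit4 act on insulin and growth signalling. Pik3r1, the regulatory subunit of PI3K, held 6.74, 8.07, 6.52 and 6.41 FPKM at ZT12 in WT 6-OHDA muscle, against 4.66, 4.59, 4.76 and 4.63 FPKM at ZT0. The ZT0 libraries lay close together and below all those at ZT12, and the difference was 0.57 ± 0.10 (adjusted p = 0.0105), or 0.44 (adjusted p = 0.138) with each library scaled to its own total of reads. Its WT sham libraries held 5.79, 4.90 and 4.28 FPKM at ZT12, against 4.46, 3.65, 3.93 and 3.84 FPKM at ZT0, a difference of 0.32 ± 0.11 (adjusted p = 0.197). Ddit4, or REDD1, an inhibitor of the growth kinase mTORC1, held 18.4, 24.7, 15.1 and 9.77 FPKM at ZT12 in WT 6-OHDA muscle, against 7.82, 8.56, 6.12 and 5.40 FPKM at ZT0. The times did not overlap, yet the difference of 1.23 ± 0.37 did not pass (adjusted p = 0.117). Sham libraries of Ddit4 in WT muscle held 8.54, 6.73 and 15.5 FPKM at ZT12 and 3.71, 6.32, 6.89 and 14.4 FPKM at ZT0, which overlap, and differed by 0.47 ± 0.40 (adjusted p = 0.752). The metallothioneins, small proteins that bind zinc and copper, did not pass either: Mt1 differed by 0.59 ± 0.20 and Mt2 by 0.36 ± 0.29 in 6-OHDA muscle (adjusted p = 0.166 and 0.57).

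**Figure D2:**
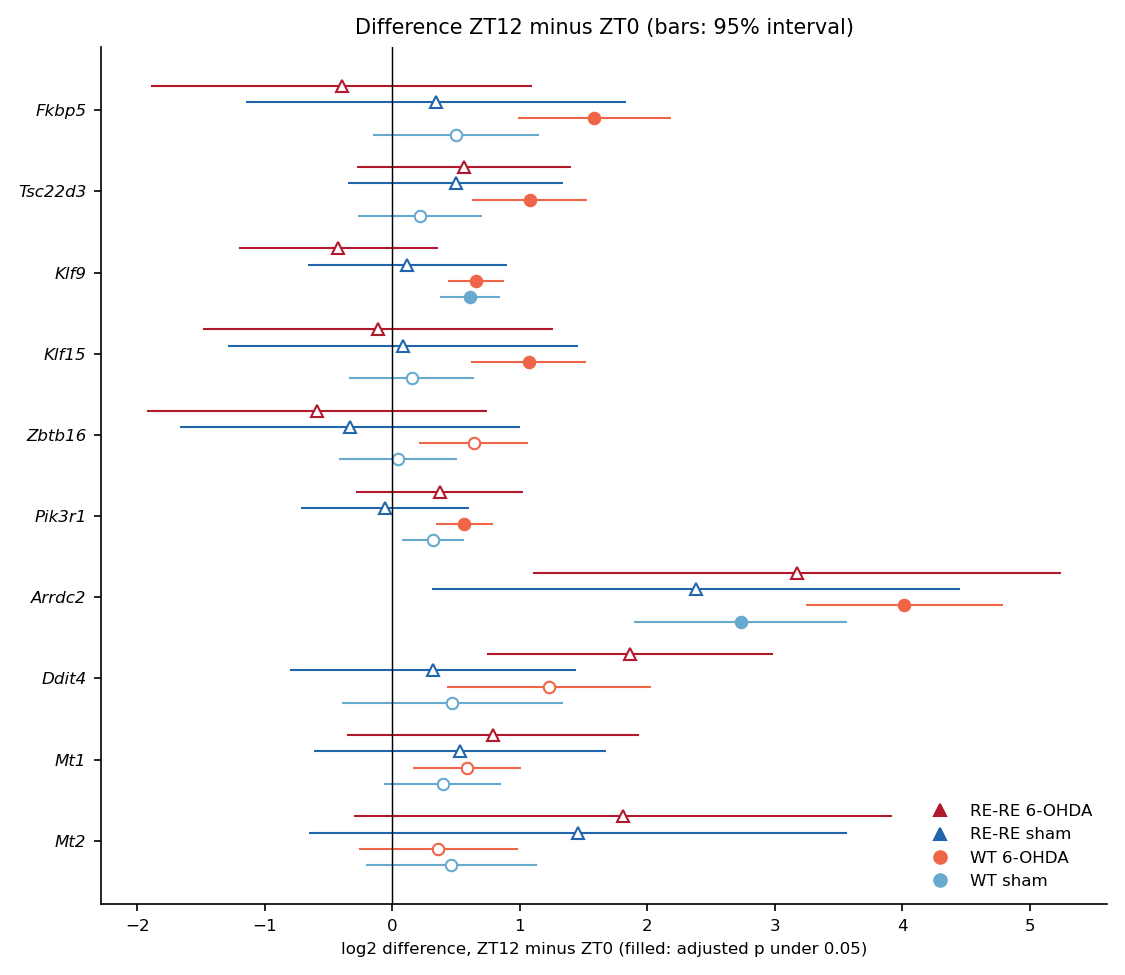
Log2 difference, ZT12 minus ZT0, of each gene (rows) in each genotype and treatment, with 95% intervals from limma; filled symbols have an adjusted p under 0.05. In WT 6-OHDA muscle 6 symbols are filled and in WT sham muscle 2; no RE-RE symbol is, and RE-RE intervals are the widest.

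In RE-RE muscle no gene was called in either treatment by limma, ZT12 minus ZT0, where 0.0156% of all genes were called in sham muscle and 0.0% in 6-OHDA muscle. At an unadjusted p under 0.05 stood 1 gene in sham muscle and 2 in 6-OHDA muscle, Arrdc2 in both and Ddit4 in 6-OHDA muscle (1.31% and 2.19% of all genes tested). Arrdc2 held 52.6 and 19.2 FPKM at ZT12, against 2.39 and 5.13 FPKM at ZT0, in RE-RE 6-OHDA muscle. It held 17.7 and 43.2 FPKM at ZT12, against 2.09 and 13.3 FPKM at ZT0, in RE-RE sham muscle. Its ZT12 libraries were above those at ZT0 in both treatments, by 3.18 ± 0.90 in 6-OHDA muscle (95% interval 1.11 to 5.25) and 2.38 ± 0.90 in sham muscle (0.31 to 4.45), with an adjusted p of 1 in each. Without the 3 libraries that stood apart these were 3.73 and 1.70, the second from 1 library at each time.

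Ddit4 held 16.4 and 15.3 FPKM at ZT12, against 5.64 and 3.33 FPKM at ZT0, in RE-RE 6-OHDA muscle. The difference was 1.86 ± 0.49 (adjusted p = 1), and 1.48 without the libraries that stood apart. In RE-RE sham muscle Ddit4 held 2.57 and 4.88 FPKM at ZT12 and 1.94 and 4.13 FPKM at ZT0, which overlap. Fkbp5, Klf9, Klf15 and Zbtb16 lay below 0 in RE-RE 6-OHDA muscle, between -0.59 and -0.11, and every interval of these 4 held 0. Without the libraries that stood apart, Fkbp5 was at -0.86, Zbtb16 at -0.26, Klf9 at -0.04 and Klf15 at 0.82, so that the sign of Klf15 turned. For Klf9 the libraries were 28.8 and 28.9 FPKM at ZT12 and 29.7 and 50.3 FPKM at ZT0, where the 50.3 FPKM is ZT0 library 2, and the difference with that library was -0.42. Fkbp5 showed the spread of the RE-RE sham libraries: ZT12 libraries 3 and 4 held 2.01 and 8.40 FPKM, on either side of the 3.87 and 2.69 FPKM at ZT0, and the difference was 0.35 ± 0.65 with library 3 and 1.64 without the libraries that stood apart. Tsc22d3 held 63.3 and 57.0 FPKM at ZT12, against 39.8 and 45.4 FPKM at ZT0, in RE-RE sham muscle, with no overlap, and 46.1 and 33.3 FPKM at ZT12, against 19.7 and 35.7 FPKM at ZT0, in RE-RE 6-OHDA muscle, with overlap. The differences were 0.50 ± 0.37 in sham and 0.56 ± 0.37 in 6-OHDA muscle, and 0.33 and 0.99 without the libraries that stood apart. Klf15 held 12.2 and 9.12 FPKM at ZT12 and 5.95 and 21.8 FPKM at ZT0 in RE-RE 6-OHDA muscle, and 13.0 and 19.03 FPKM at ZT12 and 11.1 and 19.9 FPKM at ZT0 in RE-RE sham muscle. Both pairs overlap, and the 21.8 FPKM is ZT0 library 2. Mt2 held 16.1 and 18.3 FPKM at ZT12, against 14.3 and 1.67 FPKM at ZT0, in RE-RE 6-OHDA muscle, where the 1.67 FPKM is again library 2. Its difference was 1.81 ± 0.92, and 0.26 without the libraries that stood apart. Pik3r1 held 5.51 and 5.74 FPKM at ZT12, against 4.55 and 4.14 FPKM at ZT0, in RE-RE 6-OHDA muscle, with no overlap. In RE-RE sham muscle Pik3r1 held 5.68 and 6.42 FPKM at ZT12 and 6.65 and 5.94 FPKM at ZT0, which overlap.

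Whether the difference between times itself changed was tested directly. The change with 6-OHDA in WT muscle was not called for any of the 10 genes, where 0.0234% of all genes were called, and the smallest adjusted p was 0.75. Its estimates lay above 0 for 9 of the 10, where 52.1% of all genes did, with a median of 0.68 against 0.01 over all genes. By unadjusted p under 0.05 there were 4 of the 10 (5.79% of all genes): Arrdc2 at 1.28 ± 0.53, Fkbp5 at 1.09 ± 0.41, Klf15 at 0.92 ± 0.31 and Tsc22d3 at 0.86 ± 0.31. The larger count called in 6-OHDA than in sham muscle is therefore not shown to be a difference between the treatments. That contrast shares the WT 6-OHDA ZT0 libraries with the comparison of treatments at ZT0 below.

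In RE-RE muscle, where 0.0% of all genes were called, none of the 10 was called for a change with 6-OHDA, and none had an unadjusted p under 0.05, as 0.663% of all genes had. The change with genotype, RE-RE minus WT, called none in sham muscle (0.0156% of all genes; no unadjusted p under 0.05, against 2.87% of all genes) and none in 6-OHDA muscle (0.0546% of all genes; 4 with an unadjusted p under 0.05, against 12.3% of all genes). Those 4 were Fkbp5 at -1.98 ± 0.64, Zbtb16 at -1.23 ± 0.52, Klf15 at -1.18 ± 0.55 and Klf9 at -1.08 ± 0.25, with adjusted p of 0.183 to 0.397. Without the 3 libraries that stood apart, Fkbp5 came to -2.44, Zbtb16 to -0.90, Klf9 to -0.70 and Klf15 to -0.25, with none called. Leaving out RE-RE 6-OHDA ZT0 library 1 keeps only library 2, which goes against its label, as that group. Then Klf9 (-1.46, adjusted p = 0.00485), Klf15 (-2.12, adjusted p = 0.0116) and Mt2 (3.0, adjusted p = 0.012) were called, 3 of the 10, where 14.3% of all genes were.

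The comparison of treatments asks how the genes differ in muscle injected with the toxin. At ZT0 in WT muscle, 6-OHDA minus sham, limma called 4 of the 10 genes lower, where 22.5% of all genes tested were called lower, and 1 higher, where 20.6% were. The members' share called, 5 of 10, is near that of all genes, 5530 of 12820. Over all genes 2641 were called higher and 2889 lower as deposited, with a median of -0.05. When each library was scaled to its own total of reads, 6171 were called higher and 665 lower, with a median of 0.36. Of the 10 genes, 4 were called higher and 2 lower by own totals: Mt2 (1.44), Mt1 (0.82), Pik3r1 (0.64, adjusted p = 0.00146) and Klf9 (0.23) higher, and Arrdc2 (-1.57) and Klf15 (-0.75) lower. At ZT12 1 of the 10 was called, higher, where 12.8% of all genes were called higher. Over all genes these were 1638 higher and 920 lower as deposited, with a median of -0.03. By own totals they were 2745 higher and 162 lower, with a median of 0.23.

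**Figure D3:**
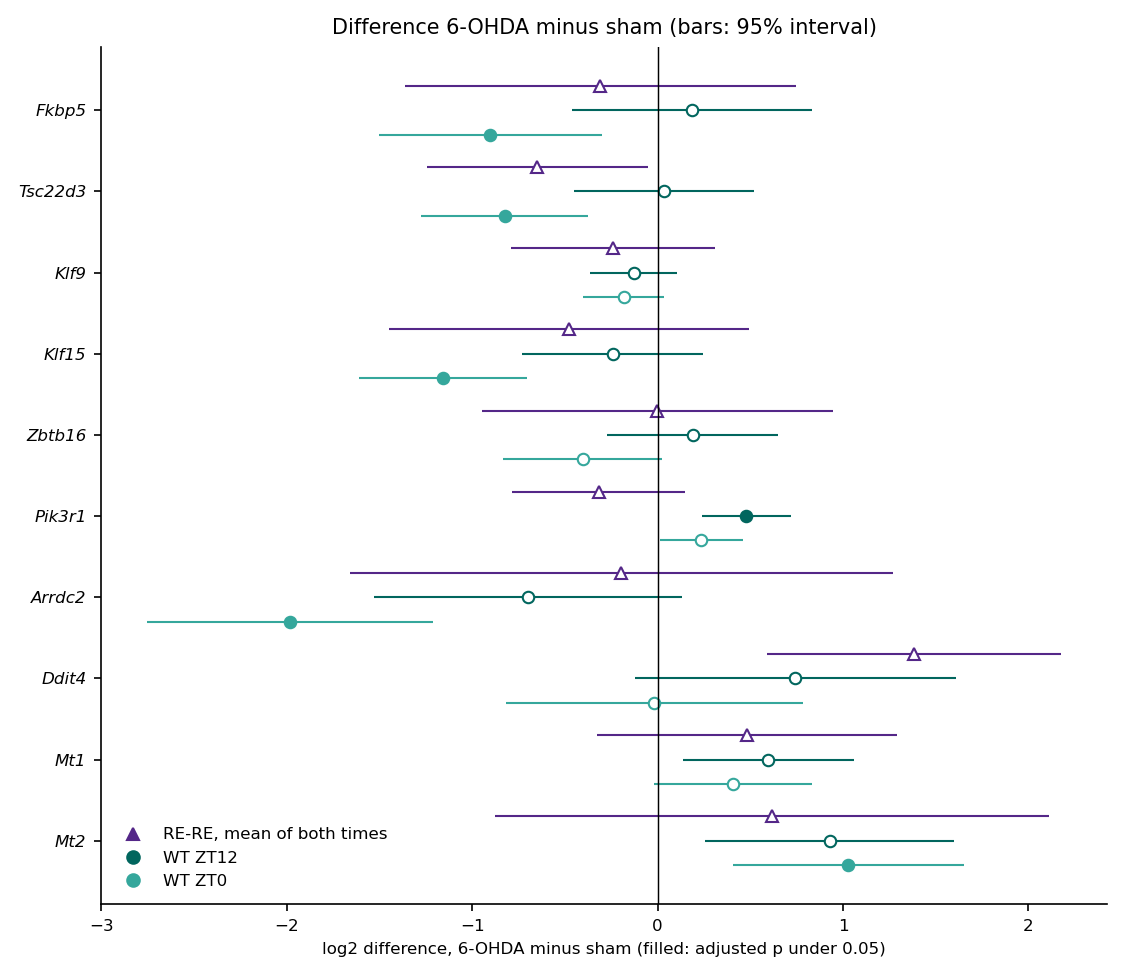
Log2 difference, 6-OHDA minus sham, of each gene (rows) in RE-RE muscle over both times, in WT muscle at ZT12 and in WT muscle at ZT0, with 95% intervals from limma; filled symbols have an adjusted p under 0.05. At ZT0 in WT muscle Arrdc2, Klf15, Fkbp5 and Tsc22d3 are filled below 0 and Mt2 above it.

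At ZT0 the 4 genes that fell in WT 6-OHDA muscle were Arrdc2, Klf15, Fkbp5 and Tsc22d3, whose libraries are given above. Arrdc2 averaged 2.17 ± 0.386 FPKM in 6-OHDA muscle and 10.1 ± 7.70 FPKM in sham muscle (SD, n = 4 each), with no overlap, a difference of -1.98 ± 0.36 (adjusted p = 0.000965). Klf15 averaged 7.21 ± 2.46 FPKM in 6-OHDA muscle and 15.5 ± 1.85 FPKM in sham muscle, again with no overlap, a difference of -1.16 ± 0.21 (adjusted p = 0.000983). Fkbp5 (-0.90 ± 0.28, adjusted p = 0.0187) and Tsc22d3 (-0.83 ± 0.21, adjusted p = 0.0065) fell with some overlap. Scaled to own totals, Fkbp5 came to -0.49 (adjusted p = 0.162) and Tsc22d3 to -0.41 (adjusted p = 0.0635), with the median of all genes at 0.36. Fkbp5 also lost its call without sham ZT0 library 4 (adjusted p = 0.0612) or 6-OHDA ZT0 library 1 (adjusted p = 0.0511), and with the RE-RE libraries in the fit (adjusted p = 0.0812). At ZT12 the same 4 genes lay between -0.70 and 0.18, and none was called.

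Klf9 at ZT0 did not pass, at -0.18 ± 0.10 (adjusted p = 0.164), and turned to 0.23 (adjusted p = 0.0362) by own totals. Zbtb16 (-0.40 ± 0.20) and Ddit4 (-0.02 ± 0.37) did not pass either, and by own totals came to 0.01 and 0.39, still not called. Pik3r1 at ZT12 was the 1 gene called there: with 6.74, 8.07, 6.52 and 6.41 FPKM in WT 6-OHDA muscle against 5.79, 4.90 and 4.28 FPKM in WT sham muscle, it was 0.48 ± 0.11 higher (adjusted p = 0.0129), or 0.37 (adjusted p = 0.0604) without sham library 7, and its call was lost with the RE-RE libraries in the fit (adjusted p = 0.116). All 4 libraries with 6-OHDA were above all 3 without.

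These differences stood beside higher levels of the markers of other cell types. In WT muscle 9 of 9 tested macrophage markers were higher with 6-OHDA at each time, and their sum was 222 to 535 FPKM in 6-OHDA and 30.5 to 69.9 FPKM in sham muscle at ZT0. At ZT12 it was 151 to 400 FPKM in 6-OHDA and 25.9 to 47.1 FPKM in sham muscle. All 8 fibroblast and matrix markers were higher at both times. The muscle fibre sum was 33095 to 41098 FPKM in 6-OHDA and 51821 to 60039 FPKM in sham muscle at ZT0. The single fibre markers did not all follow this sum. Of 9 tested in WT muscle, 3 were called higher and 4 lower with 6-OHDA at ZT0. Of all genes, 20.6% were called higher and 22.5% lower there. At ZT12, 1 of the 9 was called higher and 1 lower. None of these marker lists had a gene at 0 in every library of a group, and their part in the differences of the 10 genes was not tested.

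Of the metallothioneins, Mt2 rose with 6-OHDA at ZT0. It held 12.9, 11.4, 15.4 and 14.3 FPKM in WT 6-OHDA muscle at ZT0, against 3.81, 6.36, 7.18 and 10.8 FPKM in WT sham muscle. The groups did not overlap, and Mt2 was 1.03 ± 0.29 higher (2.04-fold, adjusted p = 0.0115), a call lost with the RE-RE libraries in the fit (adjusted p = 0.128). At ZT12 Mt2 held 18.3, 29.0, 15.1 and 11.1 FPKM in 6-OHDA muscle, against 8.06, 8.91 and 10.4 FPKM in sham muscle, with no overlap, and the difference of 0.93 ± 0.31 fell just short (adjusted p = 0.0504). Mt1 held 23.05, 21.3, 21.7 and 22.3 FPKM in 6-OHDA muscle at ZT0, against 12.2, 15.9, 16.5 and 24.0 FPKM in sham muscle. Sham library 4 overlapped the 6-OHDA libraries, and Mt1 did not pass at ZT0 (0.41 ± 0.20, adjusted p = 0.112) or at ZT12 (0.60 ± 0.21, adjusted p = 0.0629). By own totals both genes were called at both times, with Mt2 at 1.19 and Mt1 at 0.86 at ZT12.

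The ratio of Mt2 to Mt1 within a library does not depend on the scaling between libraries. It was 0.535 to 0.711 in WT 6-OHDA and 0.312 to 0.447 in WT sham muscle at ZT0, and 0.436 to 0.669 in WT 6-OHDA and 0.373 to 0.470 in WT sham muscle at ZT12. The treatments did not overlap at ZT0 and overlapped at ZT12. The lowest ratio of all libraries, 0.167, was that of RE-RE 6-OHDA ZT0 library 2, from 9.95 FPKM of Mt1 and 1.67 FPKM of Mt2. Of the zinc and metal response list, 4 of 7 tested genes were called higher and 1 lower with 6-OHDA at ZT0 in WT muscle. Of all genes, 20.6% were called higher and 22.5% lower there. The median of the list was 0.48, against -0.05 over all genes. Among the higher genes were the haem oxygenase Hmox1 (1.57 ± 0.20) and the zinc exporter Slc30a1 (0.48 ± 0.09).

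**Figure D4:**
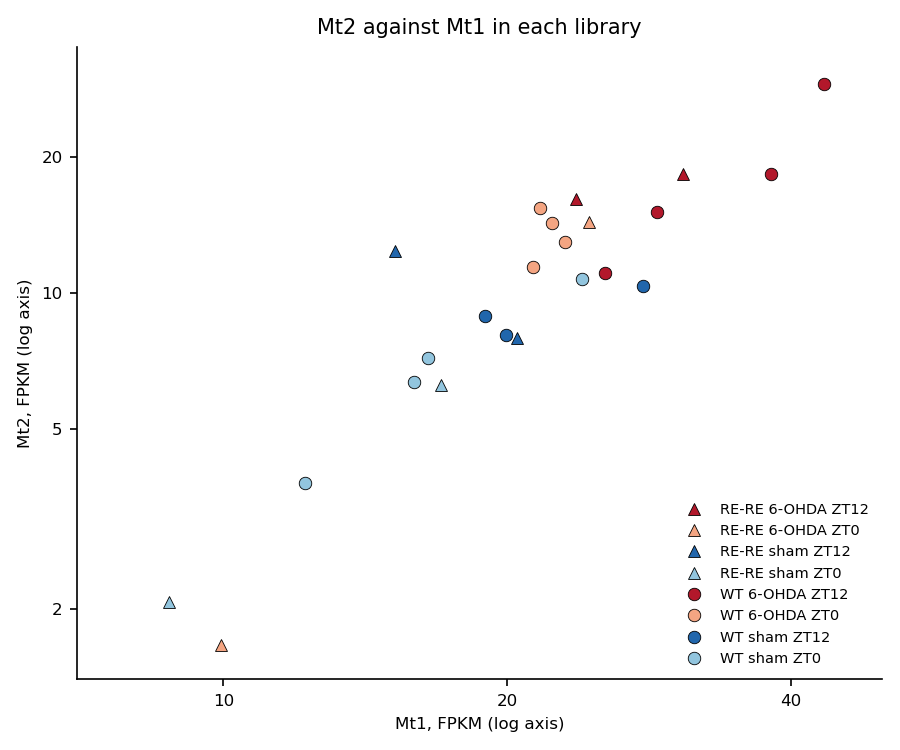
FPKM of Mt2 against Mt1 in each library, on log axes (triangles RE-RE, circles WT, red and orange 6-OHDA, dark and light blue sham, darker shades ZT12). The 2 genes rise together across libraries, and the 4 WT 6-OHDA ZT0 libraries lie at Mt1 levels of 21.3 to 23.05 FPKM with more Mt2 than the sham library at 24.0 FPKM of Mt1.

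In RE-RE muscle, 6-OHDA minus sham over both times, limma called none of the 10 genes, where 0.0156% of all genes were called, and 2 had an unadjusted p under 0.05 (13.8% of all genes). These were Ddit4 and Tsc22d3. Ddit4 was the largest, at 1.38 ± 0.35 (adjusted p = 0.357), and 1.07 without the libraries that stood apart. Its level in RE-RE 6-OHDA muscle exceeded that in RE-RE sham muscle at ZT12, 16.4 and 15.3 FPKM against 2.57 and 4.88 FPKM, and overlapped it at ZT0. Tsc22d3 came to -0.65 ± 0.26 (adjusted p = 0.357), and -0.87 without the libraries that stood apart. Mt2 came to 0.62 and Arrdc2 to -0.20, and without the libraries that stood apart Mt2 came to 1.95 and Arrdc2 to -1.46, with neither called.

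The comparison of genotypes asks how RE-RE muscle, where Cre frees Bmal1 in brain and muscle fibres, differs from WT muscle. In sham muscle, RE-RE minus WT over both times, limma called Pik3r1 higher (0.48 ± 0.10, adjusted p = 0.0117), where 4.74% of all genes were, and Ddit4 lower (-1.37 ± 0.34, adjusted p = 0.0238), where 5.17% were. Over all genes these were 608 higher and 663 lower as deposited and 244 higher and 733 lower by own totals. Pik3r1 held 5.68, 6.42, 6.65 and 5.94 FPKM in the 4 RE-RE sham libraries and 3.65 to 5.79 FPKM in the 7 WT sham libraries. Ddit4 held 2.57, 4.88, 1.94 and 4.13 FPKM in the RE-RE and 3.71 to 15.5 FPKM in the WT sham libraries, so that each gene overlapped at the edge. Both calls rest on 1 spread for both genotypes, although the residual SD was larger in RE-RE than in WT muscle for 91.7% of genes, and both were lost with weights per library (adjusted p = 0.392 for Pik3r1 and 0.415 for Ddit4) and with age as a covariate (0.0889 and 0.179). By own totals Pik3r1 came to 0.30 and was not called (adjusted p = 0.176). Age and genotype cannot be told apart in sham muscle beyond that fit, since RE-RE mice were 10 to 11 weeks old and WT mice 12 to 18 weeks. Both were also lost without RE-RE sham library 1, and Ddit4 without RE-RE sham library 3 or WT sham library 7. Leaving out RE-RE sham library 2 keeps only library 1, which stood apart, as the RE-RE sham ZT0 group, and Arrdc2 then came to -1.53. Without the libraries that stood apart, which leaves 1 library in each RE-RE sham group, Pik3r1 came to 0.48 and Ddit4 to -0.86. In 6-OHDA muscle none of the 10 was called between genotypes, where 0.226% of all genes were called, and none had an unadjusted p under 0.05, as 9.06% of all genes had.

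Other genes of the pathway were read from lists chosen for what their genes do. Of 26 tested other glucocorticoid-induced genes, 4 were called higher and none lower at ZT12 in WT sham muscle. In WT 6-OHDA muscle 8 were higher and 1 lower. Of all 12820 genes, 0.959% were called higher in sham and 1.54% in 6-OHDA muscle, and 142 and 102 genes were called lower. The median differences of the list were 0.01 in sham and 0.23 in 6-OHDA muscle, against -0.01 and 0.01 over all genes. The clock gene Per1 led both, at 3.17 ± 0.22 in 6-OHDA and 2.22 ± 0.24 in sham muscle, with the transcription factor Cebpb (2.17 ± 0.26 and 1.47 ± 0.28), the glutamine synthetase Glul (1.14 ± 0.15 and 0.92 ± 0.16) and the kinase Map3k6 (2.12 ± 0.31 and 1.75 ± 0.33). With 6-OHDA at ZT0 in WT muscle 10 of the 26 were lower and 4 higher, where 22.5% of all genes were called lower and 20.6% higher. The median was -0.19, against -0.05 over all genes. Among those called were the muscle ubiquitin ligases Fbxo32 (-1.42 ± 0.29) and Trim63 (-0.53 ± 0.12), the kinase Sgk1 (-0.70 ± 0.17) and the cell cycle inhibitor Cdkn1a (1.53 ± 0.31). Scaled to own totals, Trim63 and Sgk1 were no longer called.

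Of 13 genes of the receptor and the supply of its ligand, none was called between times in WT or RE-RE muscle. With 6-OHDA at ZT0 in WT muscle 4 were lower and 1 higher, a smaller share than the 5530 of 12820 of all genes. None of the 4 lower calls held by own totals. Nr3c1 itself held 12.7, 13.1, 13.6 and 16.9 FPKM in 6-OHDA and 17.8, 15.4, 18.4 and 21.6 FPKM in sham muscle, which overlap, a difference of -0.38 ± 0.12 (adjusted p = 0.0248). By own totals it was 0.03 (adjusted p = 0.821), and the call was also lost when any 1 of 5 of these 8 libraries was left out (adjusted p = 0.0528 to 0.0822). Hsd11b1, which regenerates active hormone inside cells, held 0.273 to 0.753 FPKM in 6-OHDA and 0.830 to 1.23 FPKM in sham muscle, a difference of -1.08 ± 0.32 (adjusted p = 0.0141), lost by own totals (adjusted p = 0.0839). Hsd11b2, which inactivates the hormone, averaged 0.854 ± 0.189 FPKM in 6-OHDA and 0.101 ± 0.071 FPKM in sham muscle (SD, n = 4 each), 3.21 ± 0.52 higher (adjusted p = 0.000496). Both means lay under 1 FPKM and the sham level was near the floor, where the 0.01 added to FPKM weighs on the log2 difference.

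Around Klf15, the branched-chain amino acid and alanine list had 5 of 9 genes lower with 6-OHDA at ZT0 in WT muscle and none higher. Of all genes, 22.5% were called lower and 20.6% higher there. The median of the list was -0.46, against -0.05 over all genes. Among the lower genes were Gpt2 (-1.20 ± 0.26) and Bckdhb (-0.59 ± 0.13), of which Bckdhb was not called by own totals. Between times 1 of the 9 was called in each treatment of WT muscle, the proline oxidase Prodh. It was 1.46 ± 0.23 higher at ZT12 in 6-OHDA and 1.06 ± 0.25 higher in sham muscle. Of all genes, 1.54% were called higher at ZT12 in 6-OHDA and 0.959% in sham muscle. Around Ddit4 and Pik3r1, 1 of 14 genes of mTORC1 and insulin signalling was called between times in each treatment, the insulin receptor substrate Irs1, at -0.74 ± 0.17 in 6-OHDA and -0.84 ± 0.18 in sham muscle. Of 16 tested paralogs of the 10 genes, none was called higher at ZT12 in either treatment, and 6 were lower in sham and 1 in 6-OHDA muscle. Of all 12820 genes, 142 were called lower in sham and 102 in 6-OHDA muscle. Klf10, the repressor related to Klf9, was lower at ZT12, at -0.77 ± 0.16 in 6-OHDA and -1.81 ± 0.18 in sham muscle. Klf2, a shear stress factor of endothelium, was the paralog whose difference between times changed with 6-OHDA in WT muscle (2.07 ± 0.28, adjusted p = 0.0294), a call lost by own totals (adjusted p = 0.144).

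The likeness of the genes to each other was described over the 8 group means, which share the libraries and their scaling. Mt1 and Mt2 were the closest pair (Pearson r = 0.940), followed by Ddit4 and Mt1 (0.920) and by Fkbp5 and Klf9 (0.902). Ddit4, Mt1 and Mt2 had r of 0.808 to 0.940 among themselves, and each had an r of at most 0.132 with Fkbp5, Tsc22d3, Klf9 and Klf15, which had r of 0.597 to 0.902 among themselves. Of 8754 other genes, those most like the mean profile of the 10 were Adh1 (0.962), Per1 (0.937), Glul (0.933), Mn1 (0.926) and Tob2 (0.909). Adh1, an alcohol dehydrogenase, averaged 21.6 FPKM in WT 6-OHDA muscle at ZT12, against 3.62 FPKM at ZT0, and 21.2 FPKM in WT sham muscle at ZT12, against 6.09 FPKM at ZT0.

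Within groups of WT muscle some libraries were high for many of the 10 genes at once. WT sham ZT0 library 4 was the highest of its 4 libraries for 6 genes and the lowest for none, and its Arrdc2 of 21.6 FPKM, Ddit4 of 14.4 FPKM and Fkbp5 of 5.13 FPKM lay closer to ZT12 than the rest of its group. Its Arntl, at 15.7 FPKM, was that of a ZT0 library. WT 6-OHDA ZT12 library 6 was the highest of its 4 libraries for 5 genes, with 24.7 FPKM of Ddit4, 43.3 FPKM of Mt1 and 29.0 FPKM of Mt2, and it also held the most macrophage marker RNA of its group, 400 FPKM. WT 6-OHDA ZT0 library 4 and WT sham ZT12 library 6 were also the highest of their groups for 5 genes each. The first held 328 FPKM of macrophage markers, within the 222 to 535 FPKM of its group. The second held 47.1 FPKM, the most of its group. These counts of genes were not made over all genes, so they describe the libraries only. The part of macrophage marker RNA in these levels was not tested.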

How the data were processed

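RNA of tibialis anterior was sequenced in 23 libraries of 8 groups. The authors deposited 1 table of log2(FPKM + 0.01) values for 14500 genes, whose lowest value, -6.64, is log2 of 0.01. Tools and build are per the submitters' processing notes and include edgeR 3.30.0, featureCounts 1.6.2, HISAT2 2.1.0, Trim Galore 0.5.0, FastQC 0.11.8 and GRCm38; the scaling behind FPKM is not given in the sources used here. Strandedness of counting is not given either, and Klf9 overlaps the microRNA gene Mir1192.

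Symbols came from GENCODE M21 (14435 IDs matched). Low values were whole multiples of 1 read within 0.1 read for 86.6% to 94.8% of values per library, which gave the depth. Genes with at least 1 FPKM in at least 2 libraries (12820) were fitted in limma 3.58.1 (R 4.3.3) on the deposited log2 values with a mean-variance trend. Comparisons within a genotype used that genotype's libraries and those between genotypes all 23. All p and adjusted p (Benjamini-Hochberg over all genes tested) are from limma, calls are at adjusted p under 0.05, and fold changes are on the log2(FPKM + 0.01) scale. The procedure was checked on simulated data, where fits between genotypes with 1 spread made too many calls, so those calls stand beside fits with weights per library. Own totals means scaling by each library's own reads. Python 3.11.15 drew the tables and plots.

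The 10 genes and the lists were chosen with earlier results of these data known. The 10 genes are named where they bear on a comparison, and not each has a value given in every one. Also named are Arntl as a check of labels, up to 4 called genes with the smallest p per list, Nr3c1 and Hsd11b1. The 5 genes most like the 10 whose mean log2 FPKM reaches 1 are named too. Lists for clock genes and for inflammatory genes that glucocorticoids repress were also counted. Of 8 clock genes tested, 6 were higher and 1 lower at ZT12 in WT muscle of each treatment. Among all 12820 genes, 0.959% were called higher in sham and 1.54% in 6-OHDA muscle, and 142 and 102 genes were called lower. The clock genes Nr1d1 and Ciart were called lower in RE-RE than in WT sham muscle, where 5.17% of all genes were. That fit used 1 spread for both genotypes. Of 9 inflammatory genes listed, 4 were present and tested. Of these 4, 3 were called higher with 6-OHDA in WT muscle at each time. The share of all genes called higher was 20.6% at ZT0 and 12.8% at ZT12. Between times, only Ccl2 of this list was called in WT muscle, lower at ZT12 in sham muscle (-2.38 ± 0.49).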

Additional observations from a re-analysis of the deposited data

How the results depend on the processing

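Settings changed one at a time left 2093 of 2320 values of the 10 genes with the same direction and side of the threshold. In 165 others, which were not called under either setting, the sign changed, for each of the 10 genes in some comparison. A value called under 1 of the settings reversed once, Klf9 with 6-OHDA at ZT0 in WT muscle, at 0.23 by own totals. Of the named list genes, Nr3c1 (0.0345), Ptges3 (0.0975) and Pik3ca (0.0621) at ZT0 and Pik3ca at ZT12 (0.000353) also reversed by own totals. The cause was not tested. Of the 10 genes, with 6-OHDA at ZT12 in WT muscle, where 1 was called, 2 were called with log2(FPKM + 1), with genes whose mean log2 FPKM reaches 1 and with the replicate block, 3 with quantile normalization, own totals and weights per library, and 0 with all libraries in the fit. With all libraries in the fit, or with the compared groups only between genotypes, 1 was called between times in WT sham muscle, 3 with 6-OHDA at ZT0 in WT muscle, 3 with 6-OHDA in RE-RE muscle (where 26.9% of all genes then were) and 0 between genotypes in sham muscle. Those called with 6-OHDA in RE-RE muscle were Ddit4, higher, and Tsc22d3 and Pik3r1, lower. Between genotypes in sham muscle, 1 was called by own totals, 0 with weights per library and 0 with age. The fit without the libraries that stood apart was chosen after seeing the data and leaves 1 library in each RE-RE sham group.

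Leaving out 1 library at a time gave 1 to 2 calls between times in WT sham muscle, 4 to 6 in WT 6-OHDA muscle, 4 to 6 with 6-OHDA at ZT0 and 0 to 3 at ZT12 in WT muscle. Between genotypes it gave 0 to 3 calls in sham and 0 to 1 in 6-OHDA muscle, and 0 to 3 for the change of the time difference with genotype in 6-OHDA muscle. For the comparisons not named here it gave 0. Sham and 6-OHDA libraries share replicate numbers, but most ages differ within numbers. The correlations of same-numbered deviations were -0.12 to 0.07 in WT and 0.10 to 0.16 in RE-RE muscle. RE-RE groups held 2 libraries each, whose deviations mirror each other, so their correlations cannot decide whether libraries were paired. Same-numbered libraries were not treated as pairs in the main fits. The replicate block called Zbtb16 (-0.40, adjusted p = 0.0326) in addition at ZT0 and Mt2 (1.14, adjusted p = 0.0447) at ZT12 in WT muscle, and no gene in the other comparisons it was run on. It was not run between times, which share no number, or between genotypes over both times, where a number stands for different times. With 2 libraries a group, the 95% interval of Arrdc2 between times in RE-RE sham muscle ran from 0.31 to 4.45.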
